A study of Mus musculus with 12 samples.

Results

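Messenger RNA attached to tagged ribosomes of a synaptic fraction was compared with the RNA of whole cortex in 6 of the 12 sequencing libraries of the series, which were selected by the group given in their sample titles. Of 29879 genes in the count files, 13137 passed the filter on low counts and were tested. All libraries came from cortex at postnatal day 21 of SNAP25 bacTRAP mice, and both groups carry this transgene. Such mice carry a transgene that adds green fluorescent protein (GFP) to the ribosomes of chosen cells. Here the control elements of the neuronal gene Snap25 drive it, and an antibody to GFP then captures the tagged ribosomes with their mRNA. The 3 WCH libraries are the homogenate control, made from total cortex RNA. The 3 SynapTRAP libraries are the GFP immunoprecipitate from the SN band of a sucrose and percoll gradient. SynapTRAP and WCH therefore differ by 2 steps, the gradient and the pull-down. The labels do not say whether replicates came from separate animals, so a p-value here measures a spread among libraries, which may be technical. For single genes, that spread was estimated over all 12 libraries of the series together. Libraries outside this comparison therefore add to it.

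Synaptoneurosomes and synaptosomes are pinched-off, resealed pieces of axon terminals and dendritic spines that hold vesicles, mitochondria and ribosomes. Some mRNAs are transported into dendrites, axons and glial processes and translated there. Ribosomes that make secreted and membrane proteins are brought to the membrane of the endoplasmic reticulum by a hydrophobic stretch in the growing protein chain, while most other mRNAs are read by free ribosomes. Pre-mRNA and many long noncoding RNAs stay in the nucleus and are not translated.

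Gene counts per library were 7650524 to 9567146 in WCH and 8938193 to 10084335 in SynapTRAP. Mitochondrially encoded RNA took 33.6% to 50.9% of them in WCH and 34.6%, 20.4% and 63.3% in SynapTRAP replicates 1 to 3. It was left out of the library size, so that 4462407 to 6032062 counts remained in WCH and 3585898 to 7115176 in SynapTRAP. Levels are given as CPM, the counts of a gene per 1000000 of those counts after TMM scaling. SynapTRAP replicate 3 stood apart from the other SynapTRAP libraries. Reads outside annotated genes, as a share of these reads plus gene counts outside the mitochondrial genome, were 41.9% in it, against 11.2% and 19.05% in SynapTRAP replicates 1 and 2 and 36.6% to 43.6% in WCH. Results that rest on this library are given with and without it.

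GFP mRNA, which encodes the ribosome tag, was low in both groups. It was at 15.4, 9.88 and 12.8 CPM in WCH and 20.2, 21.3 and 15.9 in SynapTRAP (log2 fold change 0.603 ± 0.33 SE, adjusted p = 0.15 by edgeR). SE is the standard error of the log2 fold change. The groups did not overlap, and the difference did not pass the test. Snap25, the gene whose control elements drive the tag and which encodes a protein of the vesicle fusion machinery, was at 14467, 16025 and 14925 CPM in WCH and 6129, 7385 and 5113 in SynapTRAP (log2 fold change −1.29 ± 0.28 SE, adjusted p = 0.0012 by edgeR). It was lower in every SynapTRAP library than in every WCH library.

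The net comparison separated a large part of the transcriptome. With an edgeR quasi-likelihood adjusted p under 0.05, 2768 genes (21.1% of those tested) were higher in SynapTRAP and 2276 (17.3%) were lower, 38.4% in all. Of these, 2006 rose and 1337 fell by more than 2-fold, and 403 and 163 by more than 4-fold. The median log2 fold change over all genes was −0.02, with quartiles of −0.64 and 0.72. The groups did not overlap for 2535 of the genes called higher and 2208 of those called lower, where 51.5% of all genes tested had groups that did not overlap. Without SynapTRAP replicate 3, 3190 genes were higher and 2432 lower. Without SynapTRAP replicate 1, 1472 were lower. TMM assumes that most genes do not change. Scaled to total counts instead, 1627 genes were higher and 4183 lower, so that 28.0% of the calls were higher in place of 54.9%, and the median log2 fold change was −0.42.

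**Figure D1:**
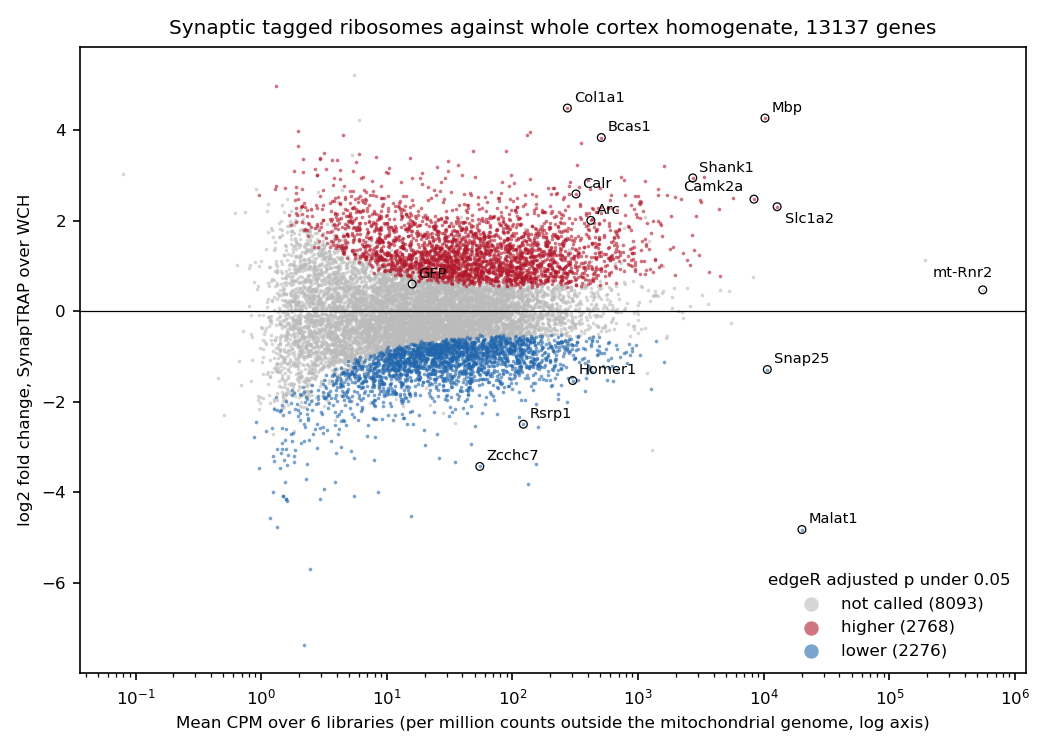
Log2 fold change of SynapTRAP over WCH (vertical axis) against the mean CPM of the 6 libraries (horizontal log axis), 1 point per gene tested. Of 13137 genes, 2768 were called higher (red) and 2276 lower (blue) at an edgeR adjusted p under 0.05. Circles mark genes named in the text, among them Mbp and Col1a1 at the top and Malat1 at the bottom.

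The genes with the largest rises, among protein-coding genes with a mean of at least 10 CPM and groups that did not overlap, were a mixed set. They include the collagen genes Col1a1, Col1a2 and Col3a1, the fibronectin gene Fn1, the angiotensinogen gene Agt, the oligodendrocyte genes Mbp and Bcas1, the actin-binding Gsn and Lcp1, the myosins Myh14 and Myo6, Amot and Trim56. Mbp, which encodes myelin basic protein and whose mRNA is carried into oligodendrocyte processes, was at 955, 1093 and 977 CPM in WCH and 13103, 9904 and 35325 in SynapTRAP (log2 fold change 4.27 ± 1.14 SE, adjusted p = 0.018 by edgeR). Col1a1, a chain of type I collagen made by fibroblasts, was at 21.7, 15.9 and 32.6 CPM in WCH and 539, 959 and 73.3 in SynapTRAP (log2 fold change 4.49 ± 1.12 SE, adjusted p = 0.014 by edgeR). Both were higher in all 3 SynapTRAP libraries, with a wide spread among them: replicate 3 was the highest for Mbp and the lowest for Col1a1. Without SynapTRAP replicate 3 their log2 fold changes were 3.58 and 5.09, and without SynapTRAP replicate 2 that of Col1a1 was 3.75. Without SynapTRAP replicate 2 the values of Col1a2 and Fn1 were 3.35 and 2.86, from 3.96 and 3.53, and without SynapTRAP replicate 1 that of Agt was 2.24, from 3.196. Each of the calls for Mbp and Col1a1 also depended on the number of WCH libraries: the adjusted p for Mbp was 0.063, 0.063 and 0.061 without WCH replicates 1, 2 and 3, and that for Col1a1 was 0.052 and 0.058 without WCH replicates 1 and 2. Gsn, at 45.6, 50.1 and 53.4 CPM in WCH and 710.4, 1060.4 and 187 in SynapTRAP (log2 fold change 3.72 ± 1.13 SE, adjusted p = 0.031 by edgeR), kept its call only without SynapTRAP replicate 3 among the fits that leave out 1 library; its adjusted p was 0.095 without WCH replicate 1, 0.095 without WCH replicate 2, 0.088 without WCH replicate 3, 0.061 without SynapTRAP replicate 1 and 0.081 without SynapTRAP replicate 2. The adjusted p for Myo6 (3.24) was 0.054, 0.057 and 0.057 without WCH replicates 1, 2 and 3.

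The largest falls were in genes of another kind. They included Zcchc7, which encodes a zinc knuckle protein of nuclear RNA turnover, Wsb1, Rnpc3 of the minor spliceosome, Ints6l, Onecut2, Arglu1, Pcgf6, Rsrp1, Zfp932, Cep70 and Trank1. Zcchc7 was at 103, 111 and 86.04 CPM in WCH and 5.76, 6.09 and 17.5 in SynapTRAP (log2 fold change −3.43 ± 0.37 SE, adjusted p = 2.6e-06 by edgeR). Wsb1 was at 55.1, 71.6 and 61.2 CPM in WCH and 4.58, 4.17 and 10.9 in SynapTRAP (log2 fold change −3.32 ± 0.36 SE, adjusted p = 2.4e-06 by edgeR). For both, SynapTRAP replicate 3 was the nearest to WCH and still far below it. Without that library the log2 fold changes were −4.0002 and −3.76, and those of Rnpc3 and Ints6l were −3.62 and −3.53, from −2.95 and −2.94. For Pcgf6 the value was −2.497, and −3.35 without SynapTRAP replicate 2.

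**Figure D2:**
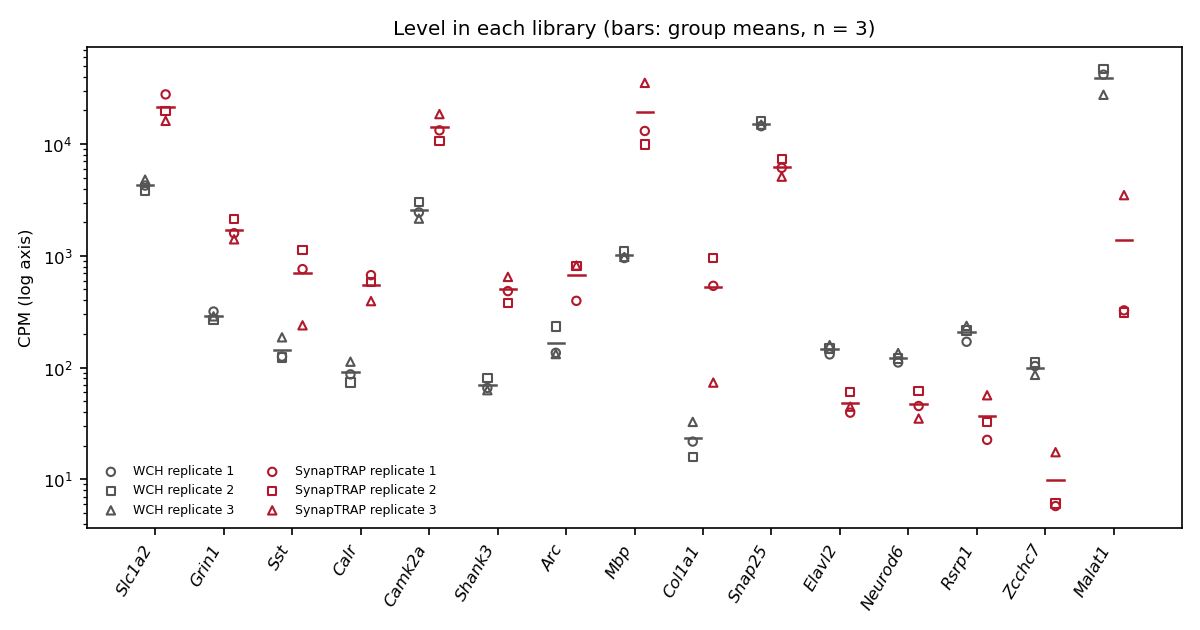
CPM on a log axis in each WCH (grey) and SynapTRAP (red) library for 15 genes named in the text, with group means as bars (n = 3). The symbols mark replicates 1 (circle), 2 (square) and 3 (triangle); the groups did not overlap for any of the 15 genes.

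Genes called higher and lower differed in the hydrophobicity of the encoded protein. For each gene, the longest coding sequence in GENCODE M21 was translated and the 19-residue window of the highest mean Kyte-Doolittle hydropathy was found. A mean of 1.6 or more is the usual sign of a membrane-spanning stretch, and a window near the start can also be a signal peptide, which is cut off. The coding bases of that window are shown here for genes of 4 kinds, so that the difference can be read from the sequence itself. They run 5′ to 3′ on the coding strand, and capitals mark a T in the middle of a codon, the base shared by the codons of phenylalanine, leucine, isoleucine, methionine and valine. The first 3 are windows near the N-terminus of secreted or luminal proteins whose mRNA rose: Calr, a chaperone of the endoplasmic reticulum (GRCm38 chr8:84846736-84846792, minus strand), the neuropeptide gene Sst (chr16:23890688-23890744, minus strand) and Clu, a secreted chaperone of astrocytes (chr14:65971765-65971821, plus strand). Each window lies within 1 coding exon, as do those that follow.

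Calr: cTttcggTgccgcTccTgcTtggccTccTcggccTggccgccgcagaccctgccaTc
Sst: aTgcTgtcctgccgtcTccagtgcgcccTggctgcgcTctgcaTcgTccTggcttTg
Clu: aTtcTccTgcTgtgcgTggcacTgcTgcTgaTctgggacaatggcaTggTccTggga

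Their mean hydropathy was 1.8, 2.07 and 2.18, with a T in the middle of 9, 9 and 12 of the 19 codons. The next pair comes from inside membrane proteins whose mRNA rose: the glial glutamate transporter gene Slc1a2 (chr2:102739748-102739804, plus strand) and the adhesion molecule gene Ncam1 (chr9:49509821-49509877, minus strand).

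Slc1a2: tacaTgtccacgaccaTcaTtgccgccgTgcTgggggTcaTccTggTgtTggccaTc
Ncam1: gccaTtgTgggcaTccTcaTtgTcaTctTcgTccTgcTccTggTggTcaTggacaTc

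Here the mean hydropathy was 2.39 and 3.23, and 11 and 16 codons had the T. The most hydrophobic window of 3 genes whose mRNA fell looks different. They are Gap43, a growth cone protein held at the membrane by attached lipid (chr16:42291860-42291916, minus strand), the transcription factor Neurod6 (chr6:55679069-55679125, minus strand) and Rsrp1, an arginine and serine rich protein (chr4:134925301-134925357, plus strand).

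Gap43: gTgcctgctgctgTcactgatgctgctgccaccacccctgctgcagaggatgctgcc
Neurod6: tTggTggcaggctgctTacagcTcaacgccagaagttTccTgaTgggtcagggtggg
Rsrp1: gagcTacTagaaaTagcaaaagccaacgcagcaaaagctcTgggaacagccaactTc

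These windows had a mean hydropathy of 0.46, 0.67 and 0.35 and a middle T in 2, 7 and 5 codons. The last pair belongs to the exceptions, genes whose mRNA rose although the protein has no such window: the postsynaptic scaffold gene Dlgap3 (chr4:127233569-127233625, plus strand) and Arc, an activity-regulated gene with mRNA in dendrites (chr15:74671386-74671442, minus strand).

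Dlgap3: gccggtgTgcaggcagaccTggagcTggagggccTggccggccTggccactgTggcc
Arc: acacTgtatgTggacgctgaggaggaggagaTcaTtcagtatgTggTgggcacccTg

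Their mean hydropathy was 0.88 and 0.29, with 6 and 7 codons with a middle T. Over all translated genes, the median number of such codons in the window was 11 for genes called higher, 8 for genes called lower and 9 for those not called.

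Across the transcriptome, 1817 of 2735 translated genes called higher (66.4%) had a window past the threshold, against 289 of 2160 called lower (13.4%), 32.5% of those not called and 36.6% of all 12665 translated genes. A window that starts in the first 30 residues was found for 32.4% of the genes called higher, 1.94% of those called lower and 14.1% of all. Read the other way, 39.2% of 4632 genes with a window were called higher and 6.24% lower, with a median log2 fold change of 0.60. Of 8033 genes without one, 11.4% were higher and 23.3% lower, with a median of −0.29. Of 1783 genes with a window near the N-terminus, 49.6% were higher and 2.36% lower. A threshold of 2.0, added after the data were seen, gave 49.1% of the genes called higher and 4.63% of those called lower. The window is a description of the sequence and not a sign that a protein is in a membrane: the soluble kinase gene Camk2a and the elongation factor gene Eef2 also pass the threshold. Genes of secreted proteins can miss it. The highest window mean was 1.5 for Col1a2, 1.29 for Col3a1 and 1.52 for Fn1, all among the largest rises, so they count as genes without a window.

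The share of counts outside the mitochondrial genome that fell on genes with a window was 33.6, 33.6 and 36.3% in the 3 WCH libraries and 50.8, 55.2 and 42.3% in SynapTRAP. For genes with a window near the N-terminus it was 10.5, 10.7 and 12.1% in WCH and 18.6, 21.6 and 14.7% in SynapTRAP. On both measures every SynapTRAP library lay above every WCH library, and SynapTRAP replicate 3 was the nearest to WCH. A two-sided exact permutation test gave p = 0.1 for each, the smallest that 3 against 3 libraries allow.

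**Figure D3:**
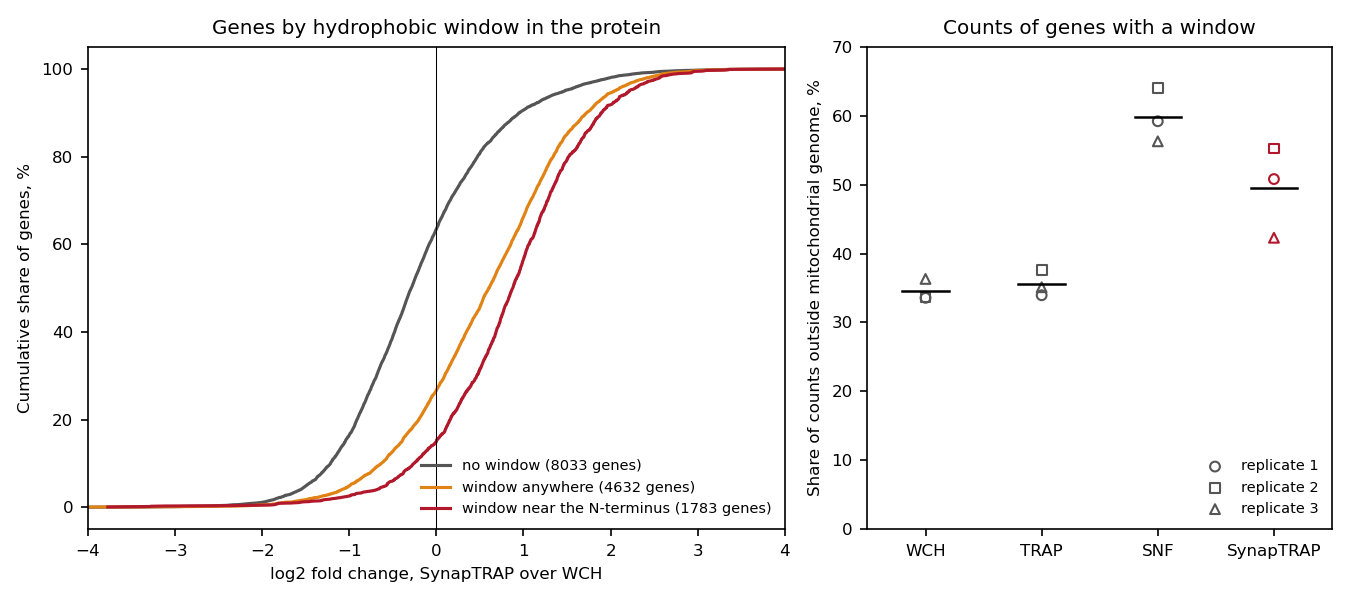
Left, the cumulative share of genes (vertical axis, %) by log2 fold change of SynapTRAP over WCH (horizontal axis) for genes with no hydrophobic window (grey), with one anywhere (orange) and with one near the N-terminus (red); the last group is contained in the second, and the curves shift to the right in that order. Right, the share of counts outside the mitochondrial genome on genes with a window in each library (symbols: replicates 1 to 3) with group means as bars. It is 33.6% to 36.3% in WCH and 42.3% to 55.2% in SynapTRAP.

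Transcripts of the 2 directions differed in length and base composition too. Genes called higher had a median of 1821 coding bases and 53.5% GC, genes called lower 1218 coding bases and 46.0% GC, and all genes tested 1455 bases and 50.5% GC. Within each of 4 equal bins of transcript length, 37.1% to 41.6% of genes with a window were called higher, against 7.12% to 17.6% of genes without one. Within each of 4 bins of GC content these shares were 25% to 55.3% with a window and 3.93% to 20.7% without, and both rose with GC. The difference between genes with and without a window had the same direction in each of these bins. The length bins use the whole transcript, so they do not hold coding length fixed. The parts that coding length and GC content themselves have in the calls were not tested.

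The listed pump, transporter, adhesion and axon guidance genes rose with few exceptions. Of the pumps and transporters, 28 of 31 rose and none fell (median log2 fold change 1.38), against 21.1% of all genes. Slc1a2, which clears glutamate from the synapse, was at 4255, 3799.6 and 4806 CPM in WCH and 27851, 19806 and 16144 in SynapTRAP (log2 fold change 2.31 ± 0.33 SE, adjusted p = 2.5e-05 by edgeR). All SynapTRAP libraries lay several-fold above all WCH libraries for this gene. Of the synaptic adhesion and axon guidance genes, 43 of 49 rose and none fell (median 1.21). They include the plexin gene Plxnb1 (2.29), the receptor phosphatase gene Ptprf (2.11), the teneurin gene Tenm2 (2.09) and Ncam1, which was at 187, 213 and 238 CPM in WCH and 795, 1152 and 650.1 in SynapTRAP (log2 fold change 2.03 ± 0.29 SE, adjusted p = 2.5e-05 by edgeR).

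Receptors and channels followed the same direction. Of the neurotransmitter receptor genes, 31 of 49 rose and none fell (median 0.88). Grin1, the obligatory subunit of NMDA receptors, was at 317, 266 and 287 CPM in WCH and 1593, 2125 and 1405 in SynapTRAP (log2 fold change 2.56 ± 0.298 SE, adjusted p = 3.7e-06 by edgeR). The metabotropic glutamate receptor gene Grm2 and the NMDA receptor subunit gene Grin2c had log2 fold changes of 1.82 and 1.77. Of the voltage-gated ion channel genes, 31 of 48 rose, among them the pacemaker channel gene Hcn2 (2.11) and the potassium channel gene Kcnh3 (2.06), and 2 of 48 fell. The 2 that fell encode auxiliary beta subunits of calcium channels, which are cytosolic. Cacnb4 was at 755, 838 and 916 CPM in WCH and 286, 212 and 378 in SynapTRAP (log2 fold change −1.52 ± 0.25 SE, adjusted p = 0.00011 by edgeR), and Cacnb2 had a log2 fold change of −1.26. Of the 44 channel genes with a hydrophobic window 30 rose and none fell; of the 4 without one 1 rose and 2 fell. Scaled to total counts, 20 receptor genes rose and none fell, and 17 channel genes rose and 5 fell.

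Most listed genes of the secretory pathway rose as well. Of the endoplasmic reticulum and secretory pathway genes, 38 of 54 rose and 1 fell (median 0.97); with total-count scaling 23 rose and 5 fell. Calr was at 86.9, 73.6 and 113 CPM in WCH and 672, 582 and 393 in SynapTRAP (log2 fold change 2.59 ± 0.27 SE, adjusted p = 2.1e-06 by edgeR). The ribosome-binding protein gene Rrbp1 (2.49), the disulfide isomerase gene Pdia3 (2.16) and Rpn1, a subunit of the complex that adds sugars to new proteins (2.13), rose with it. The gene that fell was Sec61g, a small subunit of the translocation channel (log2 fold change −1.92 ± 0.64 SE, adjusted p = 0.022 by edgeR); it was at 2.45, 7.02 and 7.77 CPM in WCH and 1.19, 1.76 and 1.56 in SynapTRAP and lost its call without SynapTRAP replicate 1 (adjusted p = 0.082), WCH replicate 2 (adjusted p = 0.081) or WCH replicate 3 (adjusted p = 0.091). Of the lysosome genes, 28 of 32 rose and none fell (median 1.52). Here genes with and without a hydrophobic window both rose, in 21 of 23 and 7 of 9 cases. Psap, the precursor of activators of lysosomal lipid breakdown, was at 174, 170.3 and 209 CPM in WCH and 913, 1291 and 849.6 in SynapTRAP (log2 fold change 2.47 ± 0.28 SE, adjusted p = 3.3e-06 by edgeR). Of the genes of cholesterol synthesis and uptake, many of whose enzymes sit in the endoplasmic reticulum membrane, 13 of 21 rose and none fell (median 0.99). Within this list 12 of 16 genes with a hydrophobic window rose, and 1 of 5 without one.

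**Figure D4:**
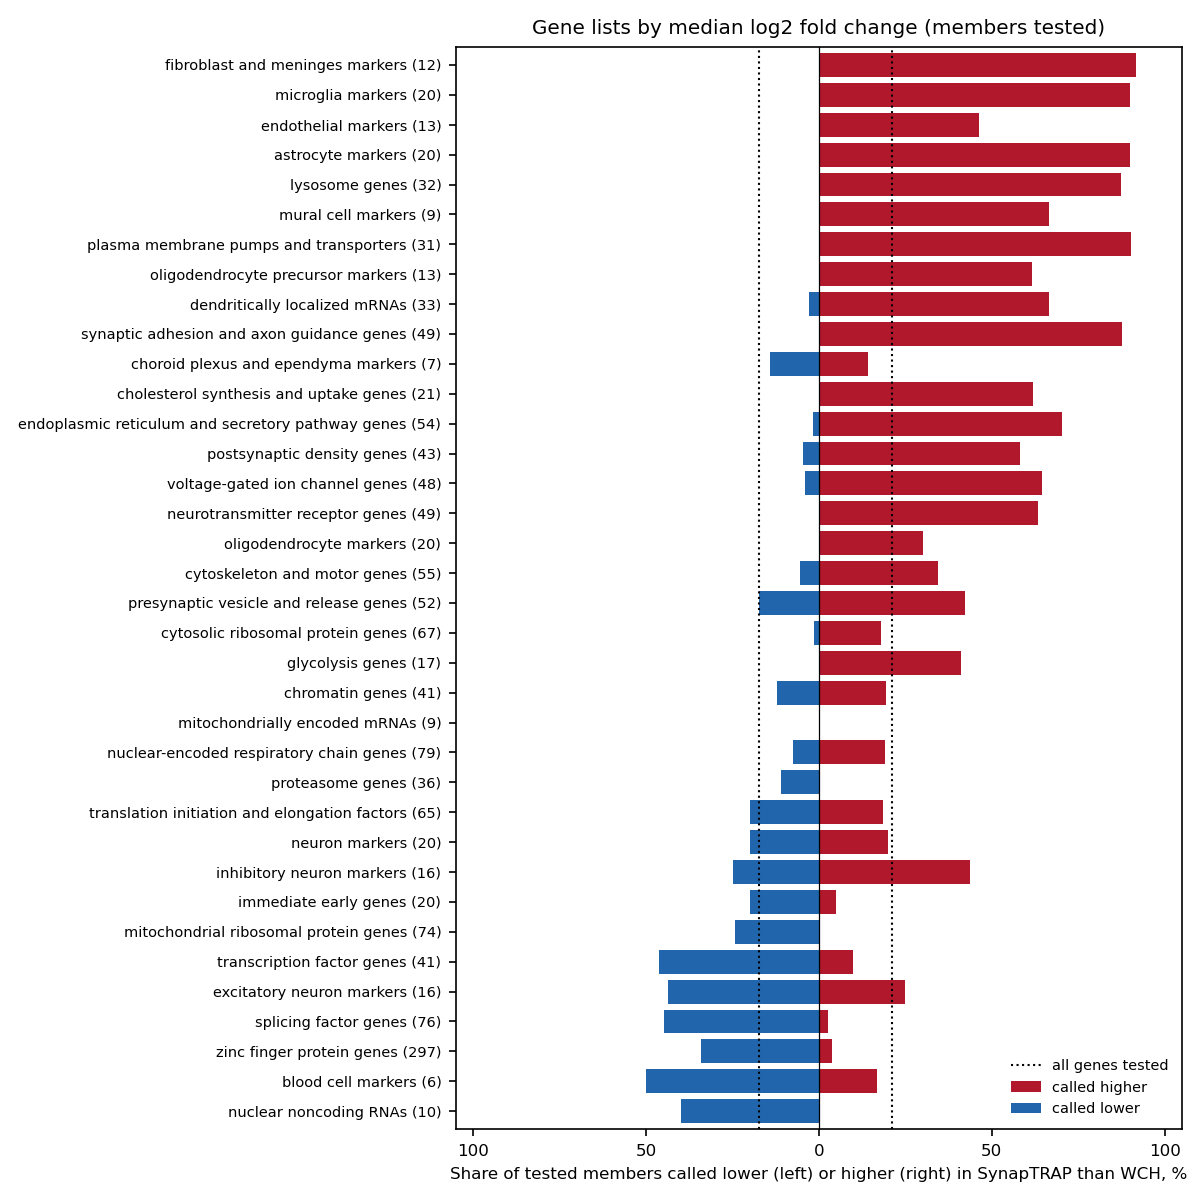
Share of tested members of each of 36 gene lists called higher (red, right) or lower (blue, left) in SynapTRAP than WCH, in order of the list's median log2 fold change. The number of members tested stands in brackets, and dotted lines mark 21.1% and 17.3%, the shares of all genes tested. Marker lists of fibroblasts, microglia, endothelial cells, astrocytes and mural cells and lysosome and membrane genes stand at the top, and zinc finger, splicing and nuclear noncoding genes near the bottom.

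More listed postsynaptic genes rose than fell, and here the leading genes include scaffold genes whose proteins have no hydrophobic window. Grin1 and Camk2a, which lead the members with a window, rose too. Of the postsynaptic density genes, 25 of 43 rose and 2 of 43 fell (median 0.91). Of the mRNAs known to be localized to dendrites, 22 of 33 rose and 1 fell (median 1.21). Scaled to total counts, 18 postsynaptic density genes rose and 4 fell, and 18 dendritic mRNAs rose and 2 fell. Without WCH replicate 1, 18 genes of each list rose. Of the members without a window, 16 of 27 postsynaptic density genes and 15 of 23 dendritic mRNAs rose, where 11.4% of all genes without a window did. Shank1 and Shank3, master scaffolds of the postsynaptic density, were the leading members. Shank1 was at 632, 721 and 522 CPM in WCH and 5146, 3862 and 5449.6 in SynapTRAP (log2 fold change 2.95 ± 0.43 SE, adjusted p = 6e-05 by edgeR). Shank3 was at 65.7, 80.9 and 62.7 CPM in WCH and 483, 379 and 648 in SynapTRAP (log2 fold change 2.85 ± 0.34 SE, adjusted p = 7.8e-06 by edgeR). For both genes the lowest SynapTRAP library was several times the highest WCH library.

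Dlgap3, which links Shank proteins to PSD-95, was at 61.8, 57.6 and 51.7 CPM in WCH and 346, 227 and 462 in SynapTRAP (log2 fold change 2.59 ± 0.28 SE, adjusted p = 2.3e-06 by edgeR). Camk2a, the kinase most abundant in the postsynaptic density and a classic dendritic mRNA, was at 2448, 3034 and 2152 CPM in WCH and 13271, 10702 and 18558 in SynapTRAP (log2 fold change 2.48 ± 0.4001 SE, adjusted p = 8.7e-05 by edgeR). Arc was at 135, 234 and 132 CPM in WCH and 396, 806 and 819 in SynapTRAP (log2 fold change 2.01 ± 0.34 SE, adjusted p = 0.0002 by edgeR). No library of one group reached into the other for these 3 genes. The dendritic mRNA Map2, which encodes the microtubule protein of dendrites, did not pass the test: it was at 1446, 1681 and 1614 CPM in WCH and 1659, 1220.5 and 3937 in SynapTRAP, with overlapping groups (log2 fold change 0.52 ± 0.35 SE, adjusted p = 0.24 by edgeR). Only SynapTRAP replicate 3 lay above the WCH libraries for Map2. SynapTRAP replicate 1 lay within their range and replicate 2 below it. Homer1, a scaffold with an activity-induced short form, fell, at 332, 446 and 564 CPM in WCH and 112, 90.1 and 265 in SynapTRAP (log2 fold change −1.53 ± 0.38 SE, adjusted p = 0.0045 by edgeR). The only other postsynaptic density gene that fell was Dlg3 (log2 fold change −0.74 ± 0.21 SE, adjusted p = 0.0077 by edgeR), whose call was lost without SynapTRAP replicate 1 (adjusted p = 0.068).

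Presynaptic genes were divided. Of the vesicle and release genes, 22 of 52 rose and 9 of 52 fell, against 21.1% and 17.3% of all genes. The list median was 0.33, and −0.07 when scaled to total counts, where 14 rose and 17 fell. Vesicle membrane proteins were among the risers. Syp, which encodes synaptophysin, was at 687, 745 and 657 CPM in WCH and 3547, 3528 and 1876 in SynapTRAP (log2 fold change 2.0995 ± 0.29 SE, adjusted p = 1.6e-05 by edgeR). The GABA transporter of vesicles, Slc32a1, was at 22.9, 19.3 and 22.9 CPM in WCH and 108, 123 and 70.9 in SynapTRAP (log2 fold change 2.22 ± 0.28 SE, adjusted p = 7.3e-06 by edgeR). Soluble and lipid-anchored proteins were among the genes that fell, Snap25 included. Of the 23 members with a hydrophobic window 15 rose and 1 fell; of the 29 without one 7 rose, among them Unc13c (1.69) and the active zone scaffold Ppfia3 (1.67), and 8 fell.

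Neuronal marker lists did not move as blocks. The groups differ by the gradient and the pull-down, so marker values measure neither the number of cells of a type nor RNA per cell. Of the general neuron markers 4 of 20 rose and 4 of 20 fell, of the excitatory markers 4 of 16 and 7 of 16, and of the inhibitory markers 7 of 16 and 4 of 16. Of all genes tested 21.1% rose and 17.3% fell, so the general neuron markers were near the shares of all genes. The list medians were −0.12, −0.58 and −0.15. Without SynapTRAP replicate 3 the first and last changed sign, to 0.02 and 0.201, and 7 neuron markers fell; without WCH replicate 2, 2 inhibitory markers fell. The members of each list differed by the hydrophobic window. All 4 neuron markers with a window rose, among them Thy1, Nrxn3 and Syt1, and of the 15 without one none rose and 4 fell. The call for Syt1 was lost without SynapTRAP replicate 2 (edgeR adjusted p = 0.1) and with total-count scaling (adjusted p = 0.065). All 7 inhibitory markers with a window rose, and of the 9 without one none rose and 4 fell. Of the excitatory markers 3 of 4 with a window rose and none fell, and of the 12 without one 1 rose and 7 fell.

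Sst, the peptide of a class of interneurons, was at 125, 123 and 186 CPM in WCH and 761, 1123 and 239 in SynapTRAP (log2 fold change 2.29 ± 0.47 SE, adjusted p = 0.0021 by edgeR). Reln, a large secreted protein of other interneurons, was at 67.8, 74.7 and 76.1 CPM in WCH and 257, 385 and 351 in SynapTRAP (log2 fold change 2.18 ± 0.24 SE, adjusted p = 2.5e-06 by edgeR). Pvalb, the cytosolic calcium buffer of fast-spiking interneurons, was at 31.2, 28.8 and 33.2 CPM in WCH and 16.8, 18.4 and 8.74 in SynapTRAP (log2 fold change −1.06 ± 0.28 SE, adjusted p = 0.0047 by edgeR). The genes of both secreted products rose and that of the cytosolic protein fell. Among excitatory markers, the vesicle protein gene Sv2b rose (1.43), and the transcription factor gene Neurod6, at 111, 121 and 135 CPM in WCH and 45.2, 62.02 and 34.96 in SynapTRAP, fell (log2 fold change −1.36 ± 0.26 SE, adjusted p = 0.00036 by edgeR). Elavl2, a neuronal RNA-binding protein, was at 131, 148 and 159 CPM in WCH and 39.5, 60.6 and 44.6 in SynapTRAP (log2 fold change −1.59 ± 0.22 SE, adjusted p = 2e-05 by edgeR). Gap43 was at 152, 163 and 193 CPM in WCH and 65.2, 59.9 and 74.6 in SynapTRAP (log2 fold change −1.35 ± 0.22 SE, adjusted p = 9.2e-05 by edgeR).

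Most markers of astrocytes and microglia rose, in a line whose tag is driven by a neuronal gene. Of the astrocyte markers 18 of 20 rose and none fell (median 1.76), and of the microglia markers 18 of 20 rose and none fell (median 1.91). The summed level of the 20 astrocyte markers was 6107 to 7727 CPM in WCH and 25033 to 42806 in SynapTRAP (2307 to 2921 and 8889 to 14955 without Slc1a2), and that of the 20 microglia markers 297 to 325 and 662 to 1427. No marker of either list was at 0 in either group. Clu was at 276, 229 and 325 CPM in WCH and 2067, 1378 and 1413 in SynapTRAP (log2 fold change 2.55 ± 0.26 SE, adjusted p = 1.8e-06 by edgeR). Itgam, a microglial integrin, was at 11.4, 10.5 and 12.4 CPM in WCH and 112, 110.3 and 43.1 in SynapTRAP (log2 fold change 2.96 ± 0.36 SE, adjusted p = 8.4e-06 by edgeR). Astrocyte markers without a hydrophobic window also rose, in 5 of 6 cases. Gfap, the astrocyte filament protein with mRNA in fine processes, was at 37.4, 37.9 and 34.96 CPM in WCH and 176, 119 and 227 in SynapTRAP (log2 fold change 2.24 ± 0.37 SE, adjusted p = 0.00018 by edgeR). Against TRAP, the same pull-down made from whole homogenate, Slc1a2 had a log2 fold change of 3.802 and Itgam of 4.15. Slc1a2 was at 1486, 938 and 2151 CPM in the 3 TRAP libraries.

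Most oligodendrocyte markers did not pass the test: 6 of 20 rose and none fell, or 1 without SynapTRAP replicate 3 (median 0.59). Their summed level was 6491 to 8217 CPM in WCH and 20152 to 47265 in SynapTRAP, and without Mbp 5514 to 7125 and 9250.2 to 11941. Of the 13 with a hydrophobic window 3 rose (median 0.58), and of the 7 without one 3 rose (median 1.07). Mbp and the myelin glycoprotein gene Mag (2.28) were among the risers. Of the oligodendrocyte precursor markers 8 of 13 rose, led by Bcas1 at 73.7, 66.6 and 59.04 CPM in WCH and 577, 507 and 1772 in SynapTRAP (log2 fold change 3.84 ± 0.897 SE, adjusted p = 0.0097 by edgeR; 3.097 without SynapTRAP replicate 3).

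Markers of the meninges and of vessel walls were low in WCH. Of the fibroblast and meninges markers 11 of 12 rose (median 2.11), or 8 without SynapTRAP replicate 1 or 2 or any 1 of the WCH libraries. Their summed level was 182 to 226 CPM in WCH and 422 to 1986 in SynapTRAP, or 160.3 to 194 and 348 to 1027 without Col1a1. Of the mural cell markers 6 of 9 rose, or 4 without SynapTRAP replicate 1 or WCH replicate 2 or 3. Of the endothelial markers 6 of 13 rose, or 3 without SynapTRAP replicate 1. No member of these lists fell. Vtn, a pericyte gene, was at 5.88, 6.44 and 6.99 CPM in WCH and 44.2, 74.998 and 46.5 in SynapTRAP (log2 fold change 3.101 ± 0.32 SE, adjusted p = 1.8e-06 by edgeR). Hemoglobin mRNA of blood cells went the other way: Hbb-bs, which shares reads with its near copy Hbb-bt, was at 22.2, 23.9 and 18.4 CPM in WCH and 5.08, 7.53 and 5.31 in SynapTRAP (log2 fold change −1.84 ± 0.39 SE, adjusted p = 0.00099 by edgeR). In all 3 of 6 blood cell markers fell and 1, the leukocyte gene Ptprc, rose (1.66), a call lost without SynapTRAP replicate 1 (adjusted p = 0.072) or WCH replicate 3 (adjusted p = 0.062). Of 7 choroid plexus and ependyma markers 1 rose, or 3 without SynapTRAP replicate 3, and 1 fell, or none without SynapTRAP replicate 1 or 2 or WCH replicate 2 or 3. SynapTRAP replicate 3 had the lowest summed level of astrocyte, microglia, endothelial, mural and fibroblast markers among the SynapTRAP libraries and the highest of oligodendrocyte markers. Whether other cells' RNA has a part in the results for other genes was not tested.

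Of 162 long intergenic noncoding genes, many of whose RNAs stay in the nucleus, 52 fell (32.1%) and 3 rose, against 17.3% and 21.1% of all genes. They took 5.596, 6.02 and 3.69% of the counts outside the mitochondrial genome in WCH and 0.335, 0.272 and 0.734% in SynapTRAP (two-sided exact permutation p = 0.1, the smallest possible). Most of this was Malat1: without it the share was 0.554, 0.562 and 0.504% in WCH and 0.306, 0.244 and 0.422% in SynapTRAP, still without overlap but less than 2-fold apart in the means. Malat1, an abundant RNA of nuclear speckles (GRCm38 chr19:5795690-5802672), was at 41833, 47144 and 27634 CPM in WCH and 325, 312 and 3493 in SynapTRAP (log2 fold change −4.82 ± 1.1005 SE, adjusted p = 0.0083 by edgeR). The SynapTRAP libraries were far apart, and replicate 3 was far above the others; without it the log2 fold change was −6.86. The same library lay nearest to WCH for Miat, at 287, 311 and 247 CPM in WCH and 13.6, 6.25 and 65.2 in SynapTRAP (log2 fold change −3.37 ± 0.81 SE, adjusted p = 0.011 by edgeR; −4.77 without it), and for Mir124a-1hg, the host transcript of a neuronal microRNA (−3.81; −5.24 without it). Meg3, at 23.4, 23.2 and 16.9 CPM in WCH and 1.69, 0.481 and 14.7 in SynapTRAP, did not pass the test (log2 fold change −2.09 ± 0.93 SE, adjusted p = 0.1 by edgeR), and its log2 fold change without replicate 3 was −4.203. Of the nuclear noncoding RNAs on the list 4 of 10 fell, or 7 without that library (median −2.57). Replicate 3 was also the SynapTRAP library with a WCH-like share of reads outside genes, as given above; the part of this in the result was not tested.

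Among genes for nuclear proteins, zinc finger, splicing and transcription factor genes had more members called lower than higher. Of the zinc finger protein genes, 101 of 297 fell and 11 rose (median −0.72; 66 fell without WCH replicate 2), against 17.3% and 21.1% of all genes. Of the splicing factor genes 34 of 76 fell and 2 rose, or 1 without SynapTRAP replicate 1 or any 1 of the WCH libraries (median −0.62). Rsrp1 was at 170.1, 215 and 236 CPM in WCH and 22.5, 32.5 and 56.5 in SynapTRAP (log2 fold change −2.49 ± 0.296 SE, adjusted p = 4.3e-06 by edgeR). The kinases of splicing factors, Clk1 (−2.08) and Clk4 (−2.24), and Srsf6, which regulates splice sites (−1.96), fell with it. Of the transcription factor genes 19 of 41 fell and 4 rose (median −0.51). The risers include Creb3 (1.53), whose protein is held in the endoplasmic reticulum membrane until it is cut, and Srf (1.25), which has no window. Of the chromatin genes 8 of 41 rose, or 4 without WCH replicate 2 or 3, where 21.1% of all genes did. Of the 41, 5 fell, or 3 without SynapTRAP replicate 2 or WCH replicate 2 or 3, where 17.3% of all genes did. The median of the chromatin genes was 0.17, and −0.23 when scaled to total counts. Hdac5, a histone deacetylase that shuttles between nucleus and cytoplasm, was at 75.2, 59.3 and 63.9 CPM in WCH and 416, 174 and 405 in SynapTRAP (log2 fold change 2.33 ± 0.297 SE, adjusted p = 8.1e-06 by edgeR). Tet2, an enzyme that oxidizes methylated DNA, fell (−1.64).

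Immediate early genes, which neuronal activity switches on, were mostly not called. Of 20, Arc rose and 4 fell, where 17.3% of all genes did. Fos was at 26.8, 36.8 and 35.5 CPM in WCH and 12.03, 18.4 and 9.36 in SynapTRAP (log2 fold change −1.29 ± 0.31 SE, adjusted p = 0.0022 by edgeR). Egr1, at 575, 695 and 643 CPM in WCH and 249, 502 and 284 in SynapTRAP (log2 fold change −0.89 ± 0.27 SE, adjusted p = 0.013 by edgeR), lost its call without SynapTRAP replicate 1 (adjusted p = 0.14), SynapTRAP replicate 3 (adjusted p = 0.065) or WCH replicate 2 (adjusted p = 0.052). Homer1, given above, is on this list too.

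The mRNAs of the translation machinery had medians near 0, and the sign for the ribosomal proteins depended on the scaling. Counts of cytosolic ribosomal protein genes are uncertain, since pseudogenes share their sequence. Of these genes 12 of 67 rose, a share near that of all genes (21.1%). Of the 67, 1 fell, or none without SynapTRAP replicate 1 or 2 or WCH replicate 1 or 3. The list median was 0.22, and −0.17 when scaled to total counts, where 2 rose and 4 fell. Without WCH replicate 2, 6 rose, and without WCH replicate 3, 7. Rpl10a, the ribosomal protein that usually carries the tag in bacTRAP lines, was at 1.63, 1.86 and 2.52 CPM in WCH and 2.54, 3.04 and 3.43 in SynapTRAP (log2 fold change 0.57 ± 0.55 SE, adjusted p = 0.42 by edgeR). Of the translation factors 12 of 65 rose, or 7 without SynapTRAP replicate 2, and 13 of 65 fell. With all libraries both shares were near those of all genes (21.1% and 17.3%). With total-count scaling 4 translation factors rose and 22 fell. Eef2, which moves the ribosome along the mRNA, was at 322, 297 and 275 CPM in WCH and 1201, 838 and 1002 in SynapTRAP (log2 fold change 1.77 ± 0.24 SE, adjusted p = 1.6e-05 by edgeR). The cap-binding factor Eif4e fell (log2 fold change −1.14 ± 0.25 SE, adjusted p = 0.0014 by edgeR).

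Most listed genes for mitochondrial proteins did not pass the test. Of the mitochondrial ribosomal protein genes none rose and 18 of 74 fell (median −0.46; 44 fell with total-count scaling), where 17.3% of all genes fell. Of the nuclear-encoded respiratory chain genes 15 of 79 rose, a share near that of all genes (21.1%), and 6 of 79 fell. Without SynapTRAP replicates 1 and 2 and WCH replicates 1 and 2, each in turn, 9, 8, 7 and 5 rose, and without SynapTRAP replicate 1 and WCH replicates 2 and 3, 3, 3 and 2 fell. Their median was 0.11, and −0.29 with total-count scaling, where 2 rose and 14 fell. Cox4i1, a subunit of cytochrome c oxidase, was at 198, 191 and 185 CPM in WCH and 520.1, 523 and 380.2 in SynapTRAP (log2 fold change 1.31 ± 0.24 SE, adjusted p = 0.00029 by edgeR). Cycs, the mobile electron carrier cytochrome c, was at 9.81, 10.6 and 14.8 CPM in WCH and 3.73, 4.01 and 4.37 in SynapTRAP (log2 fold change −1.54 ± 0.34 SE, adjusted p = 0.0012 by edgeR). None of 9 mitochondrially encoded mRNAs passed the test. mt-Co1, another subunit of cytochrome c oxidase, was at 4021, 6334 and 7959.9 CPM in WCH and 8731, 7257 and 14758 in SynapTRAP, with overlapping groups (log2 fold change 0.75 ± 0.57 SE, adjusted p = 0.32 by edgeR). The mitochondrial ribosomal RNA mt-Rnr2 also overlapped (log2 fold change 0.47 ± 0.72 SE, adjusted p = 0.63 by edgeR). Of the glycolysis genes 7 of 17 rose, or 2 without SynapTRAP replicate 1 and 4 without WCH replicate 2, and none fell. Of the proteasome genes none rose, or 3 without SynapTRAP replicate 3 and 1 without SynapTRAP replicate 1, and 4 of 36 fell; the medians of the last pair of lists changed sign with total-count scaling, from 0.22 to −0.19 and from 0.0023 to −0.396.

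Cytoskeleton and motor genes had 19 of 55 risers and 3 of 55 that fell (median 0.52, and 0.13 with total-count scaling, where 11 rose and 14 fell). Without WCH replicate 1 or 2, 11 rose, and without SynapTRAP replicate 2, 6 fell. Among the risers Dync1h1, the very large heavy chain of the dynein motor, was at 472, 269 and 409 CPM in WCH and 2109.6, 2101 and 1149 in SynapTRAP (log2 fold change 2.22 ± 0.403 SE, adjusted p = 0.0004 by edgeR). The actin-binding Pfn2 fell (−0.96).

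The net difference is the sum of a gradient step (SNF, the band before pull-down, against WCH) and a pull-down step (SynapTRAP against SNF). These contrasts share libraries with the net comparison and with each other, so their values are set side by side without a test of likeness. In the gradient step 21.1% of genes were called higher and 17.1% lower, and in the pull-down step 2.4% and 1.88%. The SNF libraries, used in both steps, held 1819853 to 2111322 counts outside the mitochondrial genome, fewer than any WCH or SynapTRAP library. The share called depends on depth and on the spread among libraries, so it does not give the size of a step. Of the genes with a hydrophobic window, in the gradient step 48.9% were called higher and 6.22% lower (median 0.95), against 5.74% and 23.7% of genes without one (median −0.48). In the pull-down step 1.64% of genes with a window were higher and 4.75% lower, and 2.96% and 0.162% of those without (medians −0.22 and 0.15). In the pull-down from whole homogenate (TRAP against WCH) 10.7% of genes with a window were higher and 12.2% lower, and 12.3% and 10.3% of those without.

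The lists differed in which step they moved. Pumps and transporters had a median of 1.85 in the gradient step and −0.47 in the pull-down step, and lysosome genes 1.79 and −0.25. Microglia markers stood at 2.401 and −0.497. The medians of postsynaptic density genes were above 0 in both, at 0.52 and 0.75, as were those of dendritic mRNAs, at 0.71 and 0.77. In the pull-down step 14 of 43 postsynaptic density genes were called higher and 4 lower, and 11 of 33 dendritic mRNAs higher and 2 lower. Members with and without a hydrophobic window went apart: the medians were −0.55 and 1.02 for postsynaptic density genes and −0.16 and 0.86 for dendritic mRNAs. Shank3 had 1.28 (edgeR adjusted p = 0.0051) in the gradient step and 1.57 (adjusted p = 0.014) in the pull-down step. Arc had 0.702 (adjusted p = 0.1) and 1.31 (adjusted p = 0.034), and Hdac5 0.76 (adjusted p = 0.043) and 1.57 (adjusted p = 0.0066). Slc1a2 had 2.75 (adjusted p = 4.6e-06) and −0.44 (adjusted p = 0.48). GFP had −0.88 in the gradient step, which did not pass the test (adjusted p = 0.081), and rose in the pull-down step, at 1.48 (adjusted p = 0.033), from 6.08, 7.87 and 6.68 CPM in the SNF libraries.

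**Figure D5:**
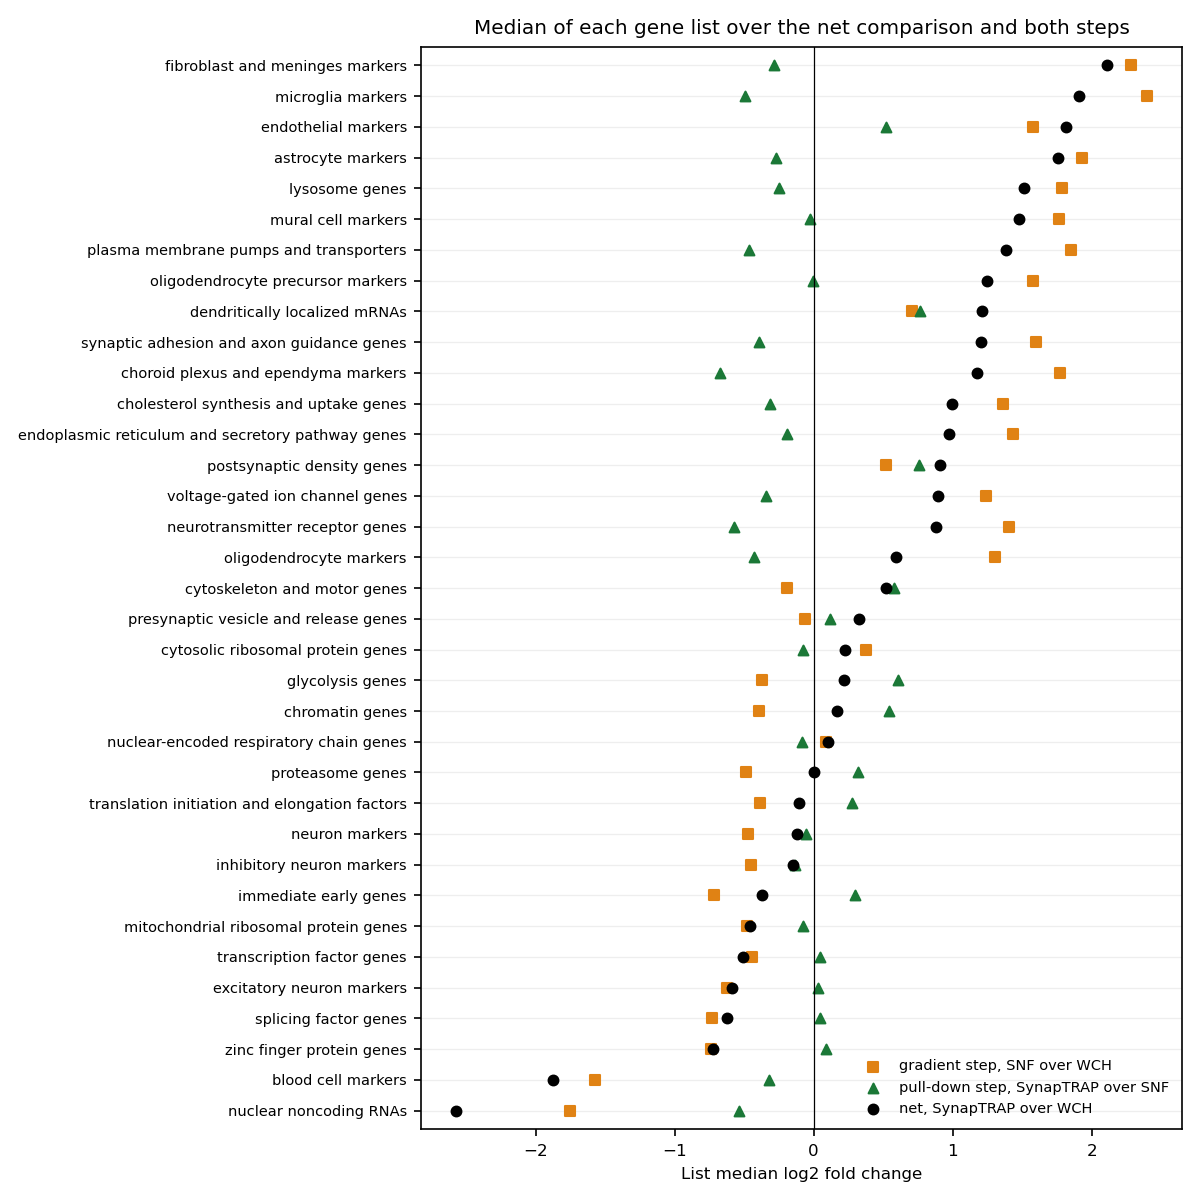
Median log2 fold change of each gene list in the gradient step (orange squares), the pull-down step (green triangles) and the net comparison (black circles); the 9 mitochondrially encoded mRNAs are not drawn. Membrane, lysosome, glial and vascular lists have their larger value in the gradient step. Postsynaptic density, dendritic and cytoskeleton genes have values above 0 in the pull-down step. Other lists do too, among them glycolysis genes (0.60), chromatin genes (0.54) and endothelial markers (0.52). The contrasts share libraries.

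The authors deposited tables of candidate genes that they chose on these same samples, so the tables give no independent evidence. All 109 genes that the authors' deposited table lists as candidates for local translation were called higher here, with log2 fold changes from 0.84 to 4.49 (median 2.01). Of 275 genes in the authors' deposited table of somatic translation candidates, none was called higher and 100 were called lower (median −0.49).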

How the data were processed

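RNA sequencing of mouse cortex was analysed in 3 SynapTRAP and 3 WCH libraries, with the 3 SNF and 3 TRAP libraries in the same fit. A NuGEN V2 kit made the cDNA, per the labels' protocols. The submitters' processing notes name STAR, Bowtie2, HTSeq and edgeR. Tool versions, build, annotation and strand setting are not given in the sources used, so reads of overlapping or antisense genes cannot be told apart. The authors deposited whole-number counts per gene and library, followed by 5 summary rows for reads outside genes or not assigned, which were left out. They held 37.4% to 47.0% of all reads in WCH and 28.2% to 44.6% in SynapTRAP. Per the file headers, the authors' deposited tables of candidate genes give log2 fold changes; only their gene names were used here.

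Symbols of 28842 identifiers came from GENCODE M21, 1 from the authors' tables and 1 from the count files, and 1035 had none. Counts were fitted in edgeR 4.0.16 (R 4.3.3; robust quasi-likelihood test, group means, default expression filter). TMM factors and library sizes left out the 37 mitochondrially encoded rows. A call is an adjusted p (Benjamini-Hochberg, over all 13137 genes tested) under 0.05. CPM has the same scaling, and SE is the standard error of the log2 fold change. The depth of 3585898 to 7115176 counts sets the precision. On simulated counts for these 13137 genes with 3 libraries a group, 29 of 100 genes changed 2-fold and 94 of 100 changed 4-fold were called, with 6 false calls. No other genes were changed in the simulation, whereas 38.4% were called in the data. The simulated shares therefore do not give the sensitivity of the real comparison. Replicates were compared by chi-square statistics of their counts (mean per gene 5.17 to 56.8, where counting error gives about 1), and none was a copy of another.

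Of each gene, 1 GENCODE M21 (GRCm38) transcript was translated, from the basic set and with the longest coding sequence; mitochondrially encoded genes were not translated. Tables and figures were made in Python 3.11.15. The comparison, the 36 gene lists and the rule for named genes were chosen with earlier results of these data known. The rule took the 15 protein-coding genes and 4 noncoding genes with the largest change in each direction (adjusted p under 0.05, mean of at least 10 CPM, groups not overlapping), up to 4 called members of each list in its main direction and up to 2 in the other, and a fixed set of marker and transgene genes. Some genes that the rule took are not reported here. Genes whose sequences are shown were picked from these after their values were seen. Alternatives were DESeq2 1.42.0, other scalings, no expression filter, the 6 libraries alone, a replicate block and leaving out each library.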

Additional observations from a re-analysis of the deposited data

How the results depend on the processing

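Counts of genes called higher and lower were within 1.5 times of 2768 and 2276 with RLE size factors, TMM with mitochondrial rows, the 6 libraries alone, no expression filter and DESeq2, and 95.6% to 99.9% of the calls were shared, except 92.3% without the filter. Total-count scaling gave 1627 higher and 4183 lower. Leaving out 1 library gave 2107 to 3190 higher and 1472 to 2432 lower, the last lowest without SynapTRAP replicate 1. The share of genes called higher with a hydrophobic window was 62.3% to 70.6% when 1 library was left out, 69.4% with total-count scaling and 49.1% at a threshold of 2.0, which was added after seeing the data. Among genes called lower it was 15.5% with total-count scaling and 4.63% at that threshold. Of 190 genes taken by the naming rule none reversed; with total-count scaling 12 lost their call, and 4 to 22 did when 1 library was left out. Medians of 7 of 36 lists changed sign with total-count scaling.

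The groups share replicate numbers, but the deviations of same-numbered SynapTRAP and WCH libraries from their group means correlated at r = 0.16, 0.079 and −0.0038 across genes. SynapTRAP replicates 1 and 2 correlated best with the WCH library of the same number, and SynapTRAP replicate 3 with WCH replicate 2 (r = 0.038). The numbers were not taken to pair the samples. With the replicate number as a block, 2870 genes were higher and 2520 lower.

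Counts of 3585898 outside the mitochondrial genome in SynapTRAP replicate 3 limit what can be detected for genes of few CPM.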

Other observations

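Among noncoding genes, 2 mitochondrially encoded transfer RNAs rose in SynapTRAP although no mitochondrial mRNA passed the test. mt-Tc was at 2.61, 5.298 and 7.19 CPM in WCH and 21.01, 9.45 and 34.3 in SynapTRAP (log2 fold change 2.08 ± 0.44 SE, adjusted p = 0.00093 by edgeR), and mt-Tl1 at 6.05, 11.2 and 18.1 and 38.1, 23.9 and 42.8 (log2 fold change 1.57 ± 0.34 SE, adjusted p = 0.0013 by edgeR). Cdr1, which is covered by an antisense circular RNA that these counts cannot separate, was at 1298, 2037 and 1747 CPM in WCH and 365, 364 and 1249 in SynapTRAP and did not pass the test (log2 fold change −1.36 ± 0.597 SE, adjusted p = 0.097 by edgeR; −2.14 without SynapTRAP replicate 3).

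Some genes moved apart from the rest of their list. Aldoc, the aldolase of astrocytes, was at 415, 295 and 284 CPM in WCH and 2679, 1343 and 1273 in SynapTRAP (log2 fold change 2.41 ± 0.37 SE, adjusted p = 8e-05 by edgeR), where the median of the glycolysis genes was 0.22. Among splicing factor genes Prpf8, a very large core protein of the spliceosome, rose (log2 fold change 1.296 ± 0.26 SE, adjusted p = 0.00063 by edgeR), at 209, 196 and 188 CPM in WCH and 589, 563 and 304 in SynapTRAP. Among zinc finger genes Zfp523 rose (log2 fold change 1.98 ± 0.302 SE, adjusted p = 4.6e-05 by edgeR), at 30.6, 37.8 and 33.99 CPM in WCH and 130.1, 99.04 and 175 in SynapTRAP. The groups did not overlap for these 3 genes, which were chosen after their values were seen.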
